A study of Mus musculus with 4 samples.

Results

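Chromosome 15 of the mouse was followed in 4 liver tumours through every genomic array probe that lies on it: 6681 of the 170305 probes of the array, of which 6680 were measured on all 4 arrays. Members were taken by position on mm9, from base 3114799 to base 103460314, and the place of Myc was read as the 1 Mb window from 61.5 to 62.5 Mb, since no probe carries its name. The chromosome was selected on its measured log2 ratios, which were raised in these same tumours, so its level is described with no test. Tests were kept to differences within the chromosome, after its mean in each tumour was taken off. Differences that grow with the level of the chromosome are not removed in this way.

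Each tumour came from a separate untreated mouse on a C57BL/6J background, labelled male and Trp53-/-. The series title places the loss of Trp53, the gene of the p53 tumour suppressor, in the liver. Tumour DNA carried Cy5. The common reference carried Cy3 and was pooled spleen DNA of 3 sex-matched littermate mice, as the design text has it. The labelling protocol calls that reference liver, and its own label is Trp53-/- as well, so a change shared by tumour and reference would not be seen. Age, the driver of the deletion, the cells in which it acted and the share of tumour cells in each piece are not given in the sources used here. The 4 arrays form 1 group in which each ratio is read against 0, and the reference enters every ratio.

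Probes on chromosome 15 had a median spacing of 10.974 kb and a mean GC content of 36.8%, and at least 99.96% of genomic spots on each array were well above background in both channels. Noise between neighbouring probes was unequal, with an SD of 0.26, 0.32, 0.16 and 0.17 in tumours 1 to 4. Tumour 1 stood apart on the sex chromosomes: against the male reference its mean log2 ratio was 0.81 on X and -3.03 on Y, while tumours 2, 3 and 4 were at 0.18, 0.037 and -0.050 on X and at -1.12, -0.53 and -0.43 on Y. The values of tumour 1 are at odds with its male label and with the sex match to the reference, and the cause was not tested. Values over the tumours are therefore also given without tumour 1.

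Comparative genomic hybridisation reads copy number as the ratio of tumour to reference DNA at each probe. A chromosome that is mis-segregated as a whole shifts all its probes by a like amount, whereas a focal amplification raises a short run of probes far above their neighbours. Mouse chromosome 15 carries Myc, which encodes a transcription factor that drives growth and cell division and is a frequent target of copy gain in liver cancer. Pvt1, the long noncoding RNA gene next to it, is often gained together with Myc. Trisomy of chromosome 15 is a classical finding in mouse lymphomas.

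The probes that the account turns on are shown 5′ to 3′ with G and C in capitals, because the ratios on these arrays moved with base composition. The strand is not given in the files. Some unnamed probes ahead of Pvt1 are left out, so their labels give the order among those shown only. First come the last probe before and the first probe after the break found in tumour 1, then unnamed probes in the stretch ahead of Pvt1 and the first probe named Pvt1:
Before the break, chr15:58125509-58125568: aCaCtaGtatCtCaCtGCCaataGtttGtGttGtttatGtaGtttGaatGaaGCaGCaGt
After the break, chr15:58139969-58140028: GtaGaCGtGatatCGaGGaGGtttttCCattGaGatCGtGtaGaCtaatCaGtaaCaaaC
Ahead of Pvt1, first, chr15:61802827-61802886: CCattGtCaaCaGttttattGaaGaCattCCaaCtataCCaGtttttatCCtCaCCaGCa
Ahead of Pvt1, next, chr15:61810603-61810661: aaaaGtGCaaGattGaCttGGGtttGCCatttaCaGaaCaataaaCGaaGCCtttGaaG
Ahead of Pvt1, last, chr15:61823373-61823432: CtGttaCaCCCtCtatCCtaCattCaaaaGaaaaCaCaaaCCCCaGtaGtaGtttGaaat
Pvt1, first, chr15:61872889-61872948: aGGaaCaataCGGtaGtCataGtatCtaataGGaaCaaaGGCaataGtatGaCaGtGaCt
The others are the probes named Xrcc6 and some single probes that lay furthest from the level of the chromosome within the region of a gene. They bear on gene values further down:
Xrcc6, first, chr15:81849495-81849554: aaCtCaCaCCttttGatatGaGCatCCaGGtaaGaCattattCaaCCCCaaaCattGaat
Xrcc6, next, chr15:81862842-81862901: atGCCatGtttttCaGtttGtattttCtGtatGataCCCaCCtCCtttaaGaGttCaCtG
Xrcc6, last, chr15:81869074-81869133: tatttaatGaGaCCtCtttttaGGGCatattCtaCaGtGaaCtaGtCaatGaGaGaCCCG
Beside Xrcc6, chr15:81876598-81876657: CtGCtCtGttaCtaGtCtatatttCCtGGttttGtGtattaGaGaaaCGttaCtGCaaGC
Within 50 kb of AK043290, chr15:8814739-8814798: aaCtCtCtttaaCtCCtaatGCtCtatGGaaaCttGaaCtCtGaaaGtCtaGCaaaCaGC
Slc1a3, chr15:8650057-8650116: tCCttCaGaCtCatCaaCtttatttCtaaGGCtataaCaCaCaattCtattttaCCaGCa
Scrt1, chr15:76348429-76348487: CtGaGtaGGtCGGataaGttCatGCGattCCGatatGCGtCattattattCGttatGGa
Fam118a, chr15:84875632-84875691: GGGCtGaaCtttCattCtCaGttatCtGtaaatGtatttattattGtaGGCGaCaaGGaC

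Chromosome 15 was gained along its whole length in tumours 1 and 2, raised at a lower level in tumour 3 and at the level of the other autosomes in tumour 4. Its mean log2 ratio was 0.27 ± 0.0084 (SE over 101 bins of 1 Mb), 0.28 ± 0.0052, 0.089 ± 0.0060 and -0.0036 ± 0.0037 in tumours 1 to 4. Over the tumours it was 0.16 ± 0.14 (SD, n = 4), and 0.12 ± 0.15 (SD, n = 3) without tumour 1. The mean without tumour 2, 3 or 4 was 0.12, 0.18 or 0.21. With normexp background correction in place of the deposited background subtraction the means were 0.40, 0.36, 0.10 and 0.012, which is larger in tumours 1 to 3 and above 0 in tumour 4.

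Read as copies, the means correspond to 2.40, 2.44, 2.13 and 1.995 copies per 2 copies in the reference. An extra copy in every cell would give 0.58 on the log2 scale, more than any of the 4 means. A gain present in part of the cells, DNA of non-tumour cells in the piece and a ratio compressed by the array cannot be told apart here.

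Among the 19 autosomes chromosome 15 had the highest mean in tumours 1, 2 and 3 and ranked 2 in tumour 4. The 16 autosomes other than 9, 12 and 15 ranged from -0.027 to 0.036, from -0.20 to 0.097, from -0.046 to 0.024 and from -0.034 to -0.0032 in the same order of tumours. The level of chromosome 15 lay outside that range in the first 3 tumours and just inside it in tumour 4. Chromosomes 9 and 12, the main losses of the series, ordered the tumours in nearly the same way, with -0.31, -0.19, -0.10 and -0.025 for chromosome 9 and -0.29, -0.23, -0.073 and -0.018 for chromosome 12. Tumour 2 had the highest chromosome 15 mean, though with normexp correction tumour 1 did, and tumour 1 had the lowest values on chromosomes 9 and 12.

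**Figure D1:**
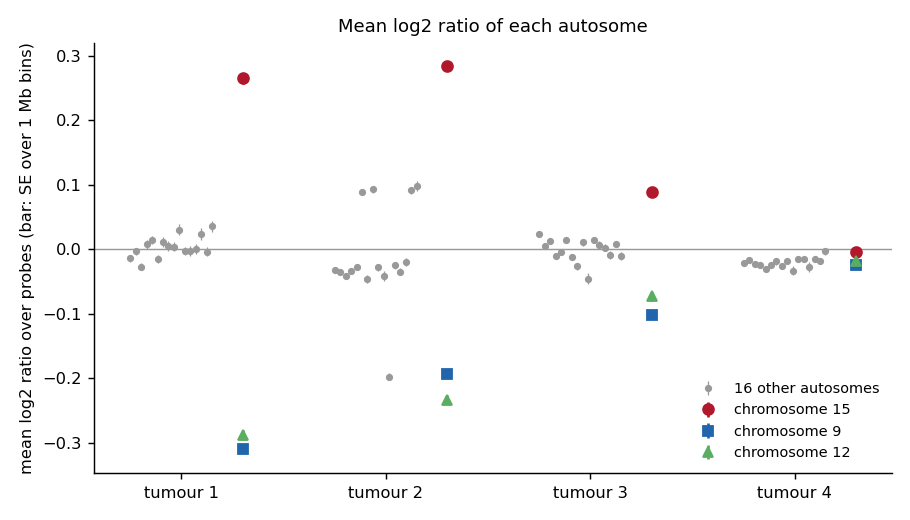
Mean log2 ratio over probes (vertical axis) of each of the 19 autosomes in tumours 1 to 4 (horizontal axis), with bars for the SE over 1 Mb bins that are mostly smaller than the symbols. Chromosome 15 (red circles) lies above the 16 other autosomes (grey) at 0.27, 0.28 and 0.089 in tumours 1 to 3 and among them at -0.0036 in tumour 4, and chromosomes 9 and 12 both lie below every grey symbol in tumours 1 and 3 but not in tumours 2 and 4.

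The gain was carried by the tumour channel. The processed tumour signal on chromosome 15, less that of the autosomes other than 9, 12 and 15 on the same array, was 0.27, 0.31, 0.10 and 0.027 in tumours 1 to 4 (log2), and the reference signal 0.0041, 0.0095, 0.011 and 0.0091. The reference channel thus differed by less than 0.01 between the arrays while the tumour channel spanned 0.28. The 49 probes of the chromosome that were spotted 5 times each gave means of 0.21, 0.22, 0.12 and -0.013, with a median SD between spots of a probe of 0.055, 0.073, 0.096 and 0.059. They show the same 2 high tumours, with tumour 3 between them and tumour 4.

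The gain reached the whole chromosome. Of its 101 bins of 1 Mb, all 101 were above 0 in tumours 1 and 2, 96 in tumour 3 and 46 in tumour 4. The bins ranged from 0.029 to 0.44 (median 0.25) in tumour 1 and from 0.11 to 0.38 (median 0.28) in tumour 2. Tumour 3 ranged from -0.030 to 0.27 (median 0.098) and tumour 4 from -0.12 to 0.070 (median -0.0019). At a log2 ratio of at least 0.2, the level used to call a gain, stood 77, 95, 3 and 0 bins in tumours 1 to 4. The shares of bins of the other autosomes above 0 or at that level are not given here, so these counts only describe the chromosome. Probe by probe, 83.2%, 81.3%, 71.6% and 54.1% lay above 0, against 52.6%, 51.2%, 51.2% and 49.9% on the autosomes other than 9, 12 and 15.

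**Figure D2:**
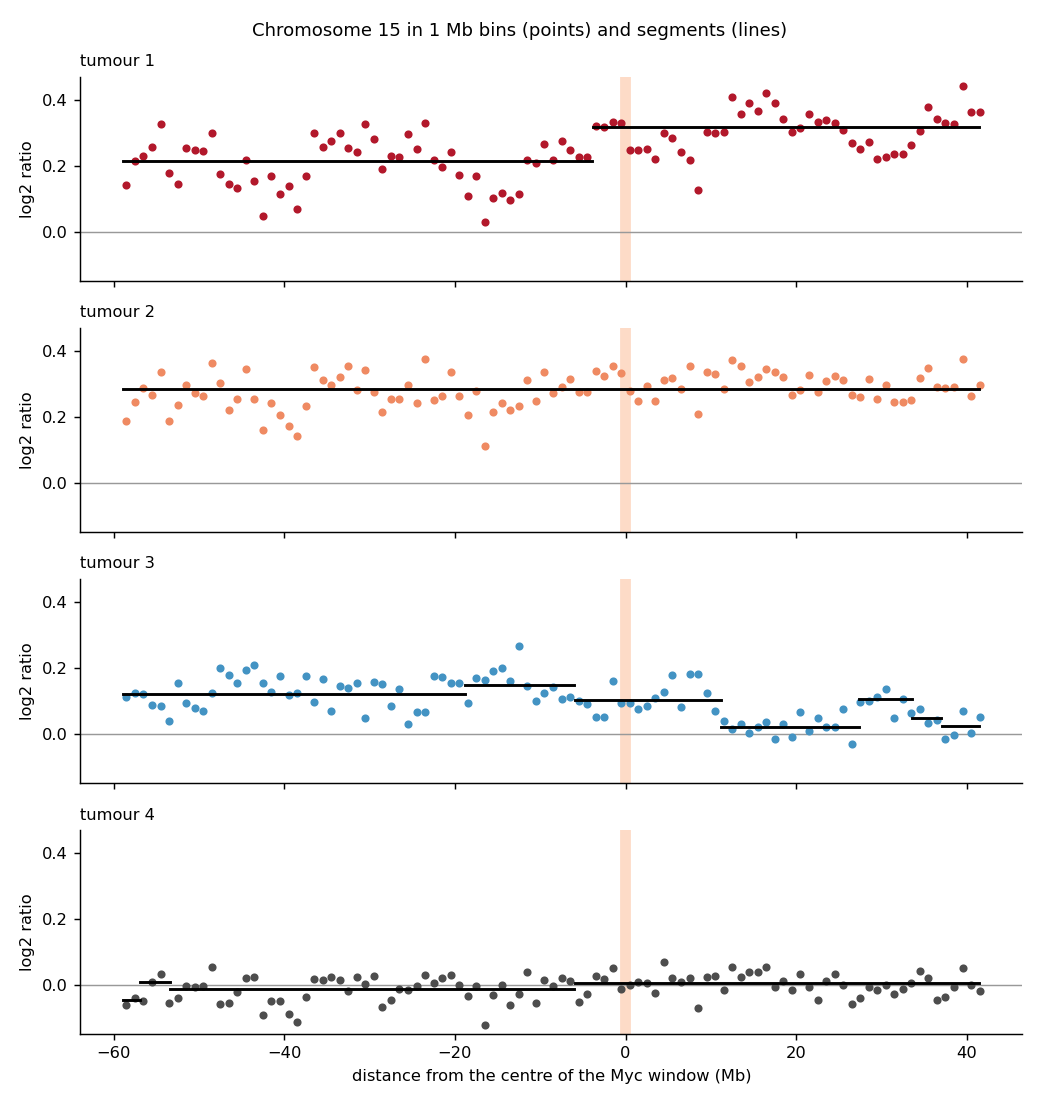
Mean log2 ratio of each 1 Mb bin of chromosome 15 (points, vertical axis) against its distance in Mb from the centre of the Myc window (horizontal axis; window shaded), with segments of at least 5 probes as black lines. All bins of tumours 1 and 2 lie above 0, the segments of tumour 1 are at 0.21 and 0.32, and the bins at the Myc window lie among their neighbours in each tumour.

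The spread between bins was 0.085, 0.052, 0.060 and 0.038 (SD) in tumours 1 to 4, against 0.079, 0.090, 0.059 and 0.047 over the bins of the autosomes other than 9, 12 and 15. In tumour 2 that second spread also holds shifts of whole chromosomes. The lowest bin was the one that starts at 45 Mb in tumours 1, 2 and 4 and the one at 88 Mb in tumour 3. The highest started at 101 Mb in tumours 1 and 2, at 49 Mb in tumour 3 and at 66 Mb in tumour 4.

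The Myc window lay at the level of its chromosome in each tumour, within 2 SE of its own probes. Its 60 probes, 23 of them named Pvt1, averaged 0.31 ± 0.039 (SE over probes), 0.31 ± 0.049, 0.061 ± 0.025 and -0.021 ± 0.030 in tumours 1 to 4. Less the rest of the chromosome, the window stood at 0.050, 0.024, -0.029 and -0.017. It was higher than the rest in 2 of 4 tumours, by 0.0070 ± 0.037 on average (SD, n = 4; two-sided exact sign-flip permutation test, p = 0.75, where 0.13 is the smallest p that 4 tumours allow). Without tumour 1 the mean difference changed sign, to -0.0074.

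No run of amplified probes was found there. The probes of the window ranged from -0.49 to 0.87, from -0.87 to 1.03, from -0.78 to 0.48 and from -0.77 to 0.42 in tumours 1 to 4. A log2 ratio of 1, a doubling, was reached by a single probe in tumour 2 and by none in the others. Above 0 lay 85.0%, 81.7%, 71.7% and 58.3% of the 60 probes, close to the shares over the whole chromosome. The bin from 61 Mb ranked 19, 20, 56 and 62 of 101 from the highest in tumours 1 to 4 and the bin from 62 Mb 56, 54, 54 and 49.

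Just ahead of Pvt1, where Myc lies in the gene order of RefSeq (GRCm38.p6, used for order only), neighbouring probes differed from each other in 3 of the 4 tumours by far more than the window did from the chromosome. The unnamed probe at 61810603 had 0.70, 0.59, 0.13 and 0.061 in tumours 1 to 4 and the next one, at 61823373, -0.18, -0.17, 0.12 and -0.32. Both sequences are given above, with a GC content of 37.3% and 36.7%. Further unnamed probes lie between that one and Pvt1. The probe at 61837871 had 0.18, 0.12, 0.035 and -0.29, the one at 61851213 -0.12, -0.25, 0.27 and -0.21. The one at 61858806 had 0.33, 0.40, 0.15 and -0.070. The first probe named Pvt1 had 0.56, 0.76, -0.15 and 0.13. Between the probes at 61810603 and 61823373 the ratio fell by more than the noise SD in tumours 1, 2 and 4, while in tumour 3 they were nearly equal. Over its whole region of 31 probes Pvt1 stood at 0.34, 0.34, 0.025 and 0.0027, relative to the chromosome at 0.018 ± 0.031 (limma, SE, n = 4; adjusted p = 0.74).

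Segmentation divided chromosome 15 differently in each tumour. The method sets breaks by penalised least squares and calls a segment of at least 5 probes gained at a mean of 0.2. Tumour 2 had 1 segment, gained, at 0.28 over all 6680 probes. Tumour 1 had 2 gained segments, of 3321 probes up to 58125568 at 0.21 and of 3359 probes from 58139969 at 0.32. Both break-side probes, shown above, carry the transcript name AK042526 and differed themselves in tumour 1, at 0.25 before and 0.58 after the break. Tumour 3 had 7 segments of at least 5 probes, from 0.020 (1342 probes, 73179090 to 89366134) to 0.15 (708 probes, 43241011 to 56016801), and tumour 4 had 4, from -0.045 to 0.010. None of these was called.

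Called shares of the chromosome were 100%, 100%, 0% and 0% of the probes in tumours 1 to 4. With a threshold of 0.1 they were 100%, 100%, 69.4% and 0%, so tumour 3 counts as largely gained at that level. With a threshold of 0.3 they were 50.3%, 0%, 0% and 0%. The proximal segment of tumour 1, at 0.21, lay close to the threshold of 0.2: centring on the mode of the autosomes or on the autosomes other than 9, 12 and 15 took it below, which left 50.3% of the chromosome called.

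At the break near 58 Mb, the side towards the end of the chromosome was higher in tumour 1 by 0.10 ± 0.013 (SE over bins), the difference that placed the break. The same probes gave 0.037 ± 0.0095 in tumour 2, -0.070 ± 0.010 in tumour 3 and 0.020 ± 0.0071 in tumour 4. Tumour 3 thus ran the other way, and tumour 4, which had no gain, ran the same way as tumours 1 and 2.

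GC content moved along with these steps. The probes before the break had a mean GC of 36.6% and those after it 37.0%. Over the 101 bins the log2 ratio correlated with the mean GC of the bin's probes at 0.63, 0.46, -0.46 and 0.44 in tumours 1 to 4, a description of bins that share an array, a labelling reaction and a reference. Over the 2052 bins of the autosomes other than 9, 12 and 15 the correlation was 0.55, 0.21, -0.47 and 0.18. Tumour 3 had the opposite sign to the others on chromosome 15 and on those autosomes alike. The slope was 0.15, 0.066, -0.076 and 0.045 per percentage point of GC on chromosome 15 and 0.13, 0.055, -0.081 and 0.024 on the others. The 26 bins lowest in GC stood at 0.19, 0.25, 0.13 and -0.024 and the 26 highest at 0.32, 0.31, 0.061 and 0.014.

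**Figure D3:**
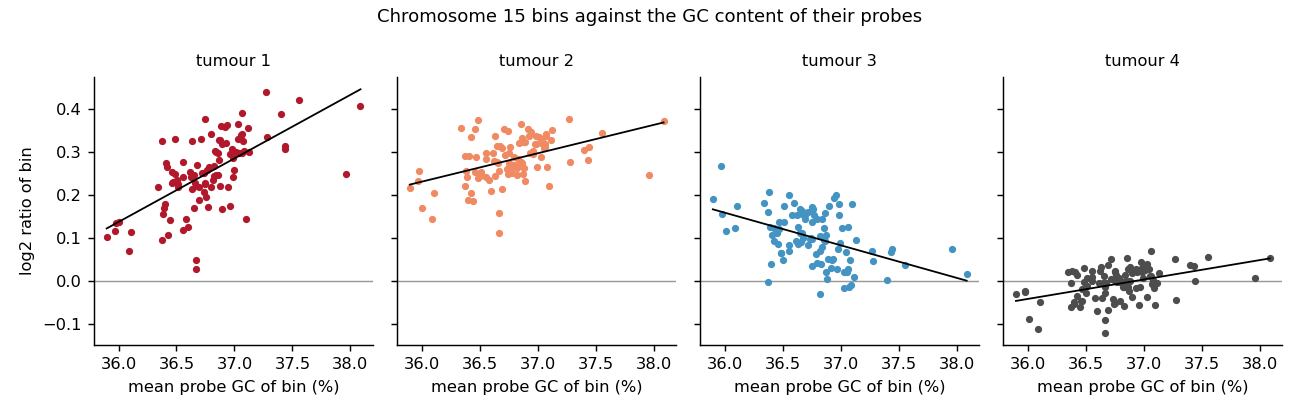
Mean log2 ratio of each of the 101 bins of chromosome 15 (vertical axis) against the mean GC content of its probes in percent (horizontal axis), with a straight-line fit, 1 panel per tumour. The bins rise with GC in tumours 1, 2 and 4 (r = 0.63, 0.46 and 0.44) and fall in tumour 3 (r = -0.46).

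Correction for the GC of the probe alone left most of the step, and correction for its surroundings as well took most of it away. With a curve fitted on the GC of the probe alone, on autosomes other than 9, 12 and 15, the step was 0.090 ± 0.012, 0.031 ± 0.0090, -0.067 ± 0.010 and 0.015 ± 0.0068 in tumours 1 to 4. With the mean GC of the 100 probes around each probe taken out as well, it was 0.038 ± 0.011, 0.011 ± 0.0084, -0.028 ± 0.0096 and 0.0081 ± 0.0065. The curves of that correction by themselves, fitted without chromosome 15, had a step at the same place of 0.064, 0.026, -0.042 and 0.012. Their sign was that of the measured step in each tumour. GC content and position change together across the break, and the cause of the step was not tested. What was left in tumour 1 was 0.038 ± 0.011. The values of that tumour placed the break, so its distance from 0 is described and is no test.

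**Figure D4:**
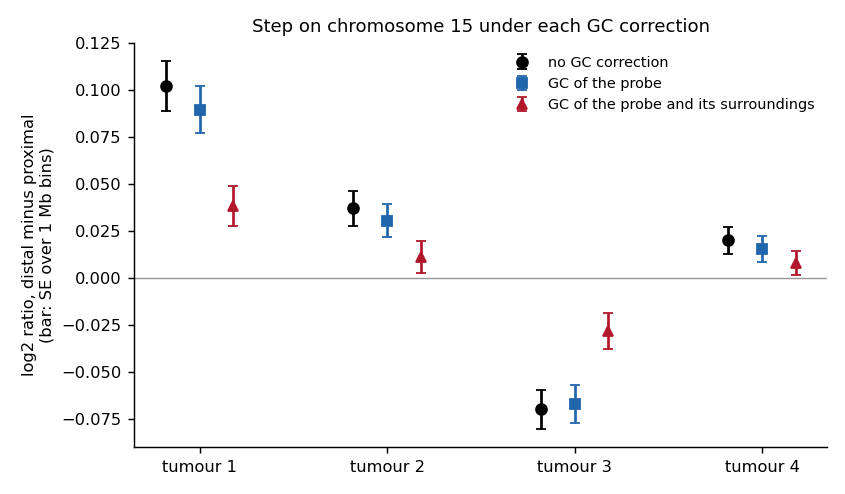
Difference in mean log2 ratio across the break near 58 Mb, distal minus proximal side (vertical axis, bars for the SE over 1 Mb bins), in each tumour with no GC correction, with correction for probe GC, and with correction for probe GC and its surroundings. In tumour 1 the step falls from 0.10 to 0.038 and in tumour 3 it goes from -0.070 to -0.028.

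The break itself moved with the correction. After correction for probe GC, tumour 1 was divided at 71384081 into 0.23 (4031 probes) and 0.32 (2649 probes). After the second correction the division lay at 97183620, between 0.25 (6091 probes) and 0.35 over the last 589 probes. Tumour 2 stayed at 1 segment in both, and the mean of the chromosome changed little, from 0.159 to 0.157 over the 4 tumours in the second. No single break position in tumour 1 was therefore held across the 3 settings. In tumour 3 the low segment from 73179090 to 89366134 stayed after correction for probe GC, at 0.023. After the second correction it was no longer separate. It then lay within a segment of 2788 probes at 0.090, from 56105589 to 95616069.

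Genes of the chromosome followed its level. The value given for a gene averages the probes of the interval that its named probes span, widened by 50 kb at either end, so neighbours share probes. The 808 gene names on chromosome 15 had medians of 0.31, 0.30, 0.054 and 0.0035 in tumours 1 to 4, against 0.034, -0.0052, -0.028 and -0.014 for the 17275 genes of the autosomes other than 9, 12 and 15. At or above 0.2 stood 671, 678, 25 and 4 of the 808, where over all 19999 autosomal genes 8.68%, 7.95%, 0.405% and 0.145% did. Nothing is read from those counts, since the rule used this contrast.

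Of 27 genes listed for the stretch around Myc, 24 were measured, with medians of 0.33, 0.33, 0.051 and 0.048. Sqle, the squalene epoxidase gene of cholesterol synthesis, had 0.34, 0.33, 0.0049 and -0.016 in tumours 1 to 4. Trib1, which encodes a pseudokinase that directs protein degradation, had 0.34, 0.32, -0.061 and -0.0049. Both were raised in tumours 1 and 2 and near 0 in the others. Nsmce2, the gene of a SUMO ligase in the SMC5/6 repair complex, had 0.37, 0.36, 0.035 and 0.047. Asap1, an Arf GTPase-activating protein gene used in cell migration, had 0.29, 0.31, 0.030 and 0.041. Ndrg1, a stress- and hypoxia-responsive gene, had 0.38, 0.41, -0.0042 and 0.061. These 5 genes lie on both sides of the Myc window and ranged from 0.29 to 0.38 in tumour 1 and from 0.31 to 0.41 in tumour 2. Wdr67, proximal to the break, was the lowest of the list in tumours 1, 2 and 4, at 0.030, 0.068, -0.036 and -0.12, and Gsdmc3, a gasdermin gene, the highest in the same tumours, at 0.45, 0.45, 0.12 and 0.19.

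Genes of growth signalling lay all along the chromosome, and 31 of 36 listed were measured, with medians of 0.27, 0.27, 0.046 and -0.011. Among receptors, Ghr, for growth hormone, had 0.15, 0.19, 0.13 and -0.034, Lifr, for leukaemia inhibitory factor, 0.35, 0.32, 0.053 and 0.076, and Osmr, for oncostatin M, 0.30, 0.35, 0.059 and 0.054. Ghr, near the proximal end, was the lowest of these in tumours 1 and 2. Among ligands, Pdgfb, the platelet-derived growth factor B gene, had 0.52, 0.51, 0.0066 and 0.063 and was the highest of the list in tumour 1, while Angpt1, the angiopoietin 1 gene, had 0.19, 0.28, 0.13 and -0.011. Inside the cell, Rictor, a subunit of mTOR complex 2, had 0.24, 0.29, 0.092 and 0.027, and Ptk2, the focal adhesion kinase gene, had 0.30, 0.29, 0.068 and -0.0021. Skp2, which marks the cell-cycle inhibitor p27 for degradation, had 0.045, 0.11, 0.25 and -0.026. It was the lowest of the list in tumours 1 and 2 and the highest in tumour 3.

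Of 24 tumour suppressors and chromatin regulators listed, 18 were measured, with medians of 0.26, 0.30, 0.094 and 0.022. At or above 0.2 stood 14, 17, 1 and 0 of the 18 in tumours 1 to 4, beside 671, 678, 25 and 4 of the 808 genes of the chromosome. In tumours 1 and 2 that is 77.8% and 94.4% of the list, against 83.0% and 83.9% of the 808. Nothing is read from these counts either. Arid2, a subunit of the PBAF chromatin remodelling complex and a gene mutated in human liver cancer, had 0.25, 0.36, 0.13 and 0.031 in tumours 1 to 4 over 14 probes, with an SE over probes of 0.065, 0.068, 0.034 and 0.042. It stood above the chromosome mean in 3 of 4 tumours, by 0.033 ± 0.026 on average (limma, SE, n = 4; adjusted p = 0.46), which did not pass. That difference was 0.049 without tumour 1 and 0.020 without tumour 2. Without the probe furthest from the chromosome mean it was 0.0057, a value computed after the data were seen, with Arid2 then at 0.21, 0.32, 0.12 and 0.012. The order of the tumours at Arid2 was that of the whole chromosome. Ep300, a histone acetyltransferase gene, had 0.30, 0.28, -0.0053 and 0.014, and Ext1, a heparan sulphate synthesis gene, had 0.24, 0.30, 0.10 and 0.028. Cbx7, of Polycomb complex 1, had 0.50, 0.54, 0.096 and 0.043. Csmd3, the longest of the list with 124 probes, had 0.10, 0.23, 0.18 and -0.032. Brd1, of a histone acetyltransferase complex, was the lowest in tumour 2 and in tumour 4, at 0.11, 0.095, -0.0058 and -0.15.

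Of 20 genes of genome stability 16 were measured, with medians of 0.31, 0.27, 0.0077 and -0.00023. Xrcc6, which encodes the Ku70 subunit that binds broken DNA ends, had 0.25, 0.21, -0.034 and -0.013 over 12 probes, with an SE over probes of 0.12, 0.14, 0.047 and 0.077. It lay below the chromosome mean in all 4 tumours, at -0.056 ± 0.029 relative to it (limma, SE, n = 4; adjusted p = 0.27), which did not pass. Its own 3 probes, printed above, differed widely, with 0.041, 0.064, 0.0017 and -0.081 at the first, 0.36, 0.25, -0.13 and 0.19 at the next and 0.67, 0.68, 0.15 and 0.037 at the last. The probe beside them, named Nhp2l1, had -0.74, -1.06, -0.28 and -0.75. Without that probe Xrcc6 was at 0.34, 0.33, -0.012 and 0.053, above the chromosome mean by 0.018 on average, a value computed after the data were seen.

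Other members of that list lay on both sides of the chromosome's level. Rad21, a cohesin subunit gene, had 0.22, 0.26, 0.19 and -0.031, Recql4, a DNA helicase gene, 0.44, 0.36, 0.011 and 0.077, and Rrm2b, the p53-inducible ribonucleotide reductase gene, 0.14, 0.24, 0.079 and -0.021. Rrm2b and Rad21 lie before the break and Recql4 after it. Smc1b, the meiotic cohesin gene, was the lowest in tumours 1, 2 and 4, at 0.075, 0.093, 0.0093 and -0.24. Its region holds the Fam118a probe shown above, at -0.76, -0.92, -0.94 and -1.17, and without that probe Smc1b was at 0.14, 0.17, 0.082 and -0.17.

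Liver and metabolism genes, 25 of 32 measured, had medians of 0.34, 0.30, 0.057 and 0.033. Srebf2, the transcription factor gene of cholesterol synthesis, had 0.34, 0.29, 0.14 and 0.10, and Ppara, the nuclear receptor gene of fatty acid oxidation, 0.37, 0.26, 0.052 and 0.045. Pnpla3, a lipid droplet gene linked to fatty liver, had 0.55, 0.46, 0.057 and 0.095. The 5 measured Cyp2d genes, of a cytochrome P450 cluster for drug oxidation, ranged from 0.26 to 0.46 in tumour 1 and from -0.089 to 0.068 in tumour 3; their probes lie close together and near-identical copies may share signal. All of these were raised in tumours 1 and 2. The highest 2 of the list in tumour 1 were Dgat1, a triglyceride synthesis gene, at 0.70, 0.51, -0.18 and 0.27, and Hsf1, the heat shock factor gene, at 0.68, 0.53, -0.17 and 0.22. Their regions share the Scrt1 probe shown above, which had 2.73, 1.73, -0.999 and 1.51. Without it Dgat1 was at 0.45, 0.35, -0.078 and 0.11 and Hsf1 at 0.48, 0.41, -0.086 and 0.085, nearer to the level of the chromosome.

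Keratin and Hox genes, mostly near the distal end and 11 of 22 measured, had medians of 0.45, 0.33, 0.050 and 0.036, the highest of the lists in the plot of genes by list for tumour 1. Krt8 and Krt18, the keratins of hepatocytes, had 0.29, 0.24, 0.083 and -0.041 and 0.27, 0.19, 0.050 and -0.051. Krt2, a skin keratin gene, had 0.54, 0.51, 0.11 and 0.13. Hoxc10 and Hoxc5, body-axis patterning genes, had 0.68, 0.33, -0.058 and 0.092 and 0.64, 0.27, -0.14 and 0.036. The hepatocyte keratins thus lay within 0.1 of the chromosome mean in each tumour, and Krt2 and the Hox genes above it in tumour 1. Of 18 genes in the list of Ly6 and immune genes only Arc, an activity-regulated neuronal gene, was measured, at 0.55, 0.57, 0.011 and 0.13.

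**Figure D5:**
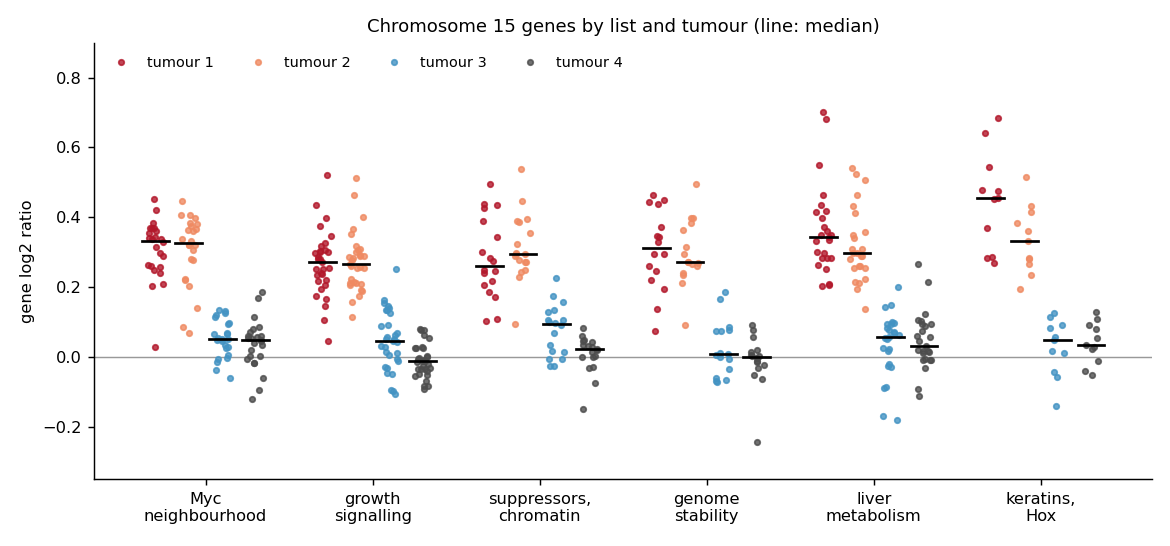
Log2 ratio (vertical axis) of each measured gene of 6 lists on chromosome 15 (points, horizontal axis by list), coloured by tumour, with a black line at the list's median. In each list tumours 1 and 2 lie highest, with medians from 0.26 to 0.45, and tumours 3 and 4 lie near 0, with medians from -0.011 to 0.094.

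Tested relative to the mean of its own chromosome, 1 of the 808 genes of chromosome 15 passed (limma, Benjamini-Hochberg adjusted p below 0.05 over 19999 autosomal genes), where 0.465% of all genes did; it was lower, as were 0.4% of all genes. At an unadjusted p below 0.05 were 158 of the 808, where 23.7% of all genes were. Both shares on chromosome 15, then, were below those over all autosomes. Of the 101 bins none passed, where 0.0838% of 2388 bins did, and 8 had an unadjusted p below 0.05, where 11.9% of all bins had. No listed gene passed, in any of the 7 lists. Their median differences from the chromosome ran from -0.034 for growth signalling to 0.068 for keratin and Hox genes (and 0.16 for Arc alone), beside 0.0062 over all genes of the chromosome.

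The gene that passed was AK043290, a transcript name of the array at 8760863 to 8798996, at 0.028, -0.035, -0.085 and -0.29 in tumours 1 to 4, and relative to the chromosome at -0.25 ± 0.031 (lower in 4 of 4 tumours; limma, SE, n = 4; adjusted p = 0.031). The difference sat mostly in 1 probe. Its region holds 6 probes, and the unnamed probe at 8814739, outside the 3 that carry the name, had -1.07, -1.50, -0.97 and -1.58. Without that probe the gene was at 0.25, 0.26, 0.092 and -0.033, or -0.017 from the chromosome. Over 13 alternatives, each tumour left out among them, its adjusted p ran from 5.1e-07 (without tumour 3) to 0.72 (no flank). It passed in 7 of the 13. Passes under the other centrings and the series table add nothing. Centring cancels in a value relative to the chromosome, and the series table holds the same ratios.

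The call also depended on single tumours. AK043290 did not pass without tumour 1, 2 or 4, with an adjusted p of 0.10, 0.29 and 0.37. Without tumour 3 the number of genes past the threshold on chromosome 15 went from 1 to 295, 195 higher and 100 lower, with 7647 of 19999 over all autosomes, and the number of bins from 0 to 28. Tumour 3 is the array whose ratios ran against GC content while those of the others ran with it. It also differed in its chromosome 15 mean of 0.089, and had the lowest reference signal over background, a median of 164. What lies behind the change in these counts was not tested. Without tumour 1, 2 or 4 no gene of chromosome 15 passed.

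Other genes at the ends of the order did not pass. On the low side after AK043290 came AK078701 (0.0095, -0.17, -0.0059 and -0.19; adjusted p = 0.087), then Smc1b, Wdr67 and Fam118a, with adjusted p-values of 0.071, 0.066 and 0.086. On the high side were Krt72 (0.62, 0.57, 0.11 and 0.13; adjusted p = 0.11), Spryd3 (0.60, 0.63, 0.069 and 0.075; adjusted p = 0.15), Krt73, the transcript ENSMUST00000023271 and Krt2. Krt72, Krt73 and Krt2 are neighbours whose regions hold 12 probes in all, 7 of them common to the 3, so they are close to 1 measurement. The 5 high genes kept their value within 1 SE when their furthest probe was left out, and the 5 low ones moved by more than 1 SE. That SE was itself unequal, from 0.043 to 0.063 for the high genes and from 0.031 to 0.053 for the low ones.

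Single probes far from the chromosome were few and mostly low. More than 1 below the chromosome mean were 19, 48, 18 and 13 of the 6680 probes in tumours 1 to 4, and more than 1 above it 7, 2, 0 and 2. The shares over the other autosomes are not given here, so these counts are not read as particular to chromosome 15. The probe in Slc1a3, a glutamate transporter gene, had -1.21, -1.61, -1.19 and -1.86, and a probe in Spats2 -1.03, -1.50, -1.95 and -1.61, the latter not well above background in tumours 2 and 3. With its low probe the Slc1a3 gene was at 0.20, 0.14, -0.028 and -0.091, and without it at 0.31, 0.27, 0.061 and 0.045. An unnamed probe at 56066215 had -0.83, -0.97, -1.45 and -1.65. These were low in all 4 tumours, tumour 4 without the gain included. The Scrt1 probe was the highest of tumour 1 and differed in sign in tumour 3.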

How the data were processed

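Genomic DNA of 4 tumours was hybridised against 1 reference pool on Agilent 2-colour arrays. Per the submitters' processing notes, Agilent Feature Extraction 10.7.3.1 made the files. The deposited ratios are, per the file headers, log10 of red over green with the background subtracted and the dyes scaled linearly, and the deposited intensity columns hold the processed, raw and background signals of both channels. Depth is limited by probe number and noise, not by counts.

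Ratios were turned to log2 (positive: more tumour DNA), control and outlier spots (93 to 126 per array) were left out, repeated spots were averaged per probe, and the autosomal median of an array was taken off. The value table of the series held the same log10 ratios as deposited at all 180880 features. Bins of 1 Mb and genes (named probes plus 50 kb each side) were taken relative to the mean of their chromosome and tested with limma 3.58.1 in R 4.3.3 over all autosomes. Segments came from penalised least squares whose penalty was the noise variance times 4 times the log of the array's probe number. GC curves were lowess fits (span 0.3). The tumours are separate mice per the design text, and p-values measure the spread between them.

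Members and gene lists were chosen with earlier results of these data known. Genes were named by a rule: listed genes with a probe, genes that passed relative to the chromosome, the 5 highest and 5 lowest by that value among the 791 with at least 5 probes, Arid2 and Xrcc6. Gene names are those of the array: 494 of 808 are current symbols, 60 older ones and 254 neither in RefSeq (GRCm38.p6). Exons and introns were not used here. The other alternatives were normexp (offset 50), other centrings, the series table, a filter on probes well above background, 2 GC corrections, each tumour left out, and other flanks, bins, windows, breaks and thresholds. Chosen after the data were seen were a penalty on the probes of the chromosome, the effect of those alternatives on segments, and gene values without their furthest probe.

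On simulated data all of 100 genes shifted by 0.5 and of 100 shifted by 1 among 19999 were called, and a step of 0.1 was placed within 200 probes in 20 of 20 draws at the noise of each tumour. No rate of false calls is given. Each gene shift was the same in every tumour and larger in size than that of the furthest gene on chromosome 15, AK043290 at -0.25. Detection of smaller shifts, or of shifts that vary between tumours, was not tested. Whether shifts linked to GC content would alter the calls or the placing was not tested. On the arrays the break of tumour 1 moved with GC correction, so the draws do not secure its position.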

Additional observations from a re-analysis of the deposited data

Results flagged for a closer look

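In 4 of 136 results examined, 1 tumour lay far from the other 3. Chance sets about 1 in 20 groups of 4 apart in this way. All values are log2 ratios relative to the mean of chromosome 15. Gsdmc3, a gasdermin gene beside the Myc window, was at 0.026 in tumour 3, below the other tumours. Trps1, a transcriptional repressor gene, was at -0.048 in tumour 1, below the others. Rad1, of the checkpoint clamp that senses DNA damage, was at 0.079 in tumour 3, and Rad21, a cohesin subunit gene, at 0.098 in tumour 3, both above the others. Trps1, Rad1 and Rad21 lie on the proximal side of the break, which is relatively low in tumour 1 and relatively high in tumour 3. The part of GC content in these 4 values was not tested.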

How the results depend on the processing

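The mean level of chromosome 15 over the tumours ran from 0.12 (without tumour 2) to 0.22 (normexp). That it stayed above 0 is no support for the gain, since the chromosome was selected on its raised ratios. In tumour 4 the sign changed, from -0.0036 to 0.012 with normexp. The Myc window less the rest of the chromosome turned negative without tumour 1; leaving out each tumour gave -0.0074 to 0.019, and other settings 0.0052 to 0.024. Over all autosomes 93 genes passed; 1445 did with normexp, 174 with probe GC corrected, 502 with probe GC and surroundings corrected, 33 with a flank of 200 kb, and 8 to 7647 with each tumour left out (22 without tumour 1, 8 without 2, 7647 without 3, 9 without 4). On chromosome 15 the count of 1 became 55, 3, 14 and 0 in the same 4 settings, 4 with no flank, and 0 to 295 with each tumour left out. Over all autosomes 2 bins passed, 8 with probe GC and surroundings corrected, 5 with bins of 0.5 Mb, and 1 to 713 with each tumour left out; on chromosome 15 this gave 0 to 28. The cause was not tested. With no flank Xrcc6 was at 0.027, AK078701 at 0.023 and Spryd3 at -0.056, each with the opposite sign. With the penalty set on the probes of the chromosome, 87.0% of it was called gained in tumour 1, which then had 9 segments. Slide as a random block could not be estimated, since only tumours 1 and 4 share a slide. No paired analysis was possible because the tumours form 1 group. Array number and probe noise limit all of these values: a focal gain of few probes may not be seen.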
